A study of Solanum tuberosum with 12 samples.

Results

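The genes described here had lower RNA levels in potato (Solanum tuberosum) shoot tips recovering from cryopreservation than in tips that had not been frozen, and this held in each of 3 recovery conditions. They were chosen on measured values. The level of a gene is its count divided by the library total and multiplied by 1000000 (CPM), and a member had a mean of at least 5 CPM in non-cryopreserved tips and at most 25% of that mean in each of the recovery groups, which were lit by cool white tubes, lit by LEDs or kept in darkness. Its cool white mean also had to be under 2 times its LED mean or under 5 CPM. This rule took 90 of the 39027 genes in the count tables, or 0.608% of the 14808 genes that reached 5 CPM in non-cryopreserved tips.

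RNA was sequenced from in vitro shoot tips of the genotype Agrie Dzeltenie, in 4 groups of 3 biological replicates with 10 tips pooled for each. Plants were 3.5 weeks old. A photoperiod of 16 h light and 8 h dark is listed for every group. Shoot tips were excised at 2 to 3 mm, and the labels give trimming to 1 mm for the non-cryopreserved control tips only. The light treatment of these controls was 16 h, under cool white fluorescent tubes only. Tips of the other groups were held for 2 h in a cryoprotectant of 10% dimethyl sulfoxide and 30% sucrose, frozen in droplets, kept for 1 h in liquid nitrogen and rewarmed for 1.5 h. They then spent 48 h in darkness on regeneration medium containing 30 g/L sucrose, zeatin riboside, gibberellic acid and indole acetic acid. The last 16 h were spent under cool white fluorescent tubes, under LEDs (90% red, 10% blue), or still in darkness. The intensity of both lights was 40 µmol per square metre per second. The labels do not say whether control tips were kept in darkness or on regeneration medium. Freezing, cryoprotectant, rewarming, the medium's hormones and sucrose, the dark period and the trimming therefore cannot be told apart in comparisons with the controls.

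A shoot tip holds the apical meristem, the dividing tissue from which leaves and stem arise, together with young leaf primordia. Freezing in liquid nitrogen stops all metabolism, and after rewarming some cells die while surviving cells resume growth. Light given in recovery acts through photoreceptors, which change the transcription of many plant genes. A lower level in such pooled tissue can come from fewer cells of a type or from less of the RNA per cell, and these cannot be told apart in bulk samples. The identifiers of the count tables start with PGSC0003DMG and are not paired with names: 0 of 39027 matched a RefSeq table of 32873 potato genes. Members are therefore given by identifier, no role is assigned to any of them, and the tissue label was not checked against marker genes.

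The rule narrowed the expressed genes in steps. A level of 25% or less of the non-cryopreserved mean was found for 136 genes under cool white light, for 145 under LEDs and for 426 in darkness. All 3 limits were met by 94 genes, which are 69.1% of the cool white, 64.8% of the LED and 22.1% of the dark list. The clause on cool white against LEDs removed 4 of these, whose cool white means were between 2.01 and 2.36 times their LED means. Just inside and just outside the lower limit on level lay genes at 5.01 and 4.95 CPM in non-cryopreserved tips. At that 25% limit, the nearest member had 0.249 and the nearest other gene 0.251 of the non-cryopreserved mean in its highest recovery group.

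**Figure D1:**
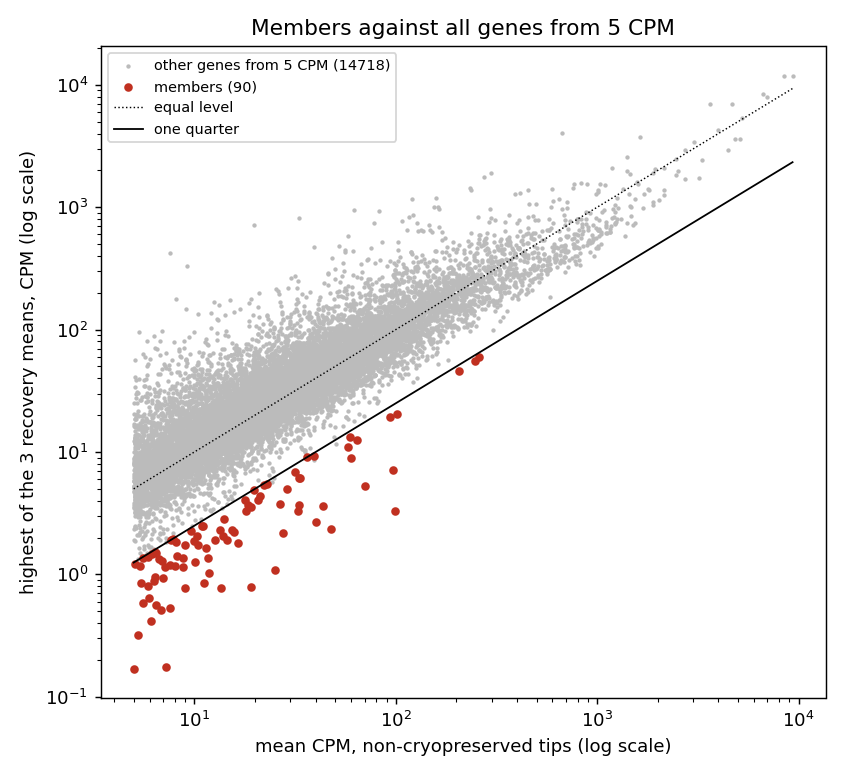
Mean CPM in non-cryopreserved tips (horizontal, log scale) against the highest of the 3 recovery means (vertical, log scale) for the 14808 genes from 5 CPM, with the 90 members in red. Members lie on or under the line at 25% by construction, and none exceeded 259 CPM in non-cryopreserved tips.

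Members were mostly genes of modest level. In non-cryopreserved tips their means ran from 5.01 to 259 CPM with a median of 12.3 CPM. From 5 to under 10 CPM there were 35 members, 1.33% of all genes at that level, followed by 25 members (0.727%) from 10, 18 (0.394%) from 20 and 12 (0.288%) from 50 CPM upward. The median level was 1.59 CPM under cool white light, 1.69 CPM under LEDs and 1.20 CPM in darkness. Relative to non-cryopreserved tips, the median member stood at 8.55% in darkness, 13.6% under LEDs and 14.03% under cool white light. In its highest recovery group, a member was at 12.5% to 25% of the non-cryopreserved level in 64 cases, at 6.25% to 12.5% in 18, and at 6.25% or less in 8. These 8 had non-cryopreserved means from 5.01 to 99.5 CPM, so the deepest reductions were not limited to genes of low level.

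Libraries held between 6342324 and 10572258 counted reads. A member had a median of 94.5 reads per library in non-cryopreserved tips, 13 under each light and 8 in darkness, so its level in recovery rests on few reads. All 9 recovery libraries lay below all 3 non-cryopreserved libraries for 88 of the 90 members, as they did for 17.5% of all 19920 genes tested. In the quasi-likelihood test of edgeR with p adjusted by Benjamini-Hochberg, 89 members had enough reads to be tested, and 89 were called lower than in non-cryopreserved tips in each condition. Among all tested genes, 27.6% were called lower in darkness, 23.3% under LEDs and 21.5% under cool white light. The rule used these same contrasts, so nothing is read from the members' counts.

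Both members whose libraries overlapped were named after their values were seen, and each owed its place largely to non-cryopreserved replicate 2. PGSC0003DMG400002471 had 184 reads in that library, or 22.6 CPM, and no read in the other 2. It reached 1.35 CPM in dark replicate 1 and was the member left untested. PGSC0003DMG400003325 was at 1.73, 10.8 and 2.73 CPM in non-cryopreserved replicates 1 to 3 and at up to 2.45 CPM after cryopreservation, in LED replicate 2. Without non-cryopreserved replicate 2 the rule took 82 genes, of which 76 were among the 90.

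**Figure D2:**
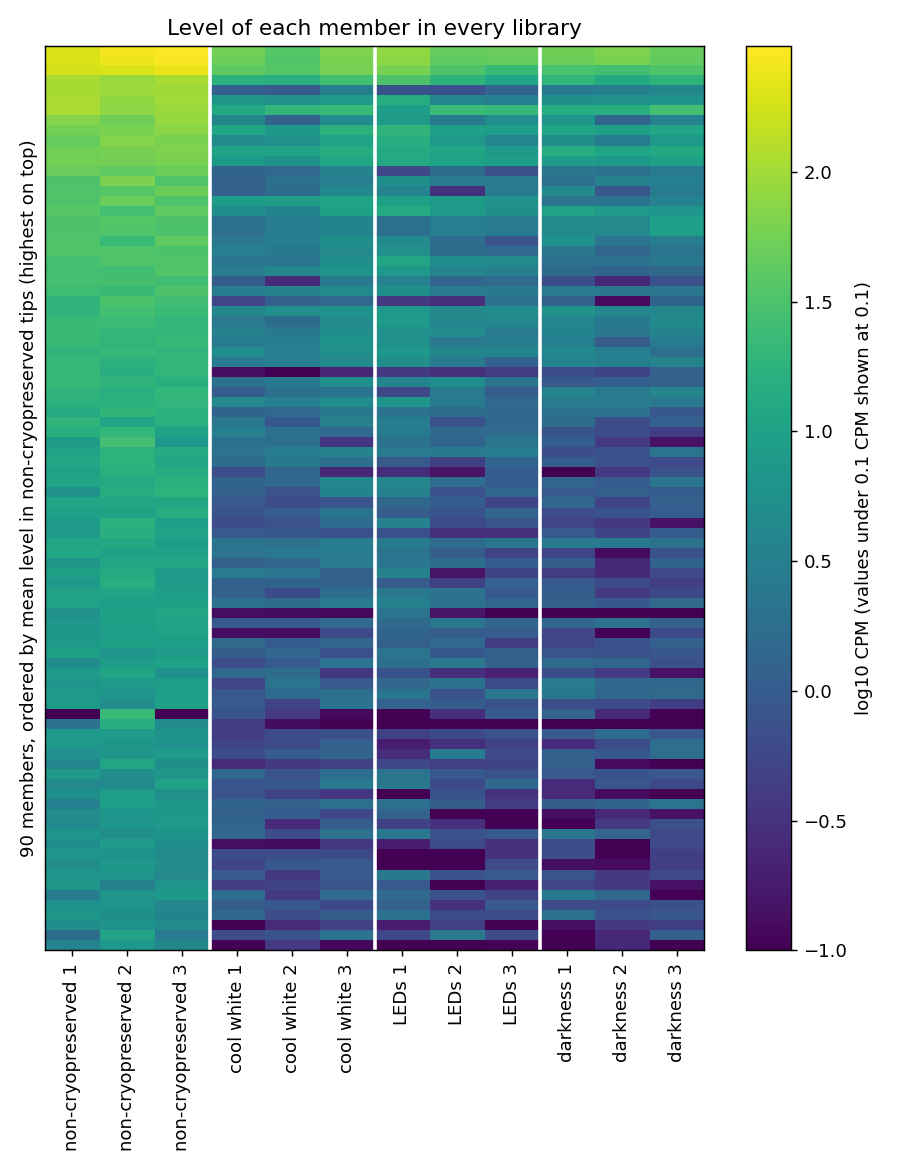
Level of each of the 90 members (rows, ordered by mean level in non-cryopreserved tips) in each of the 12 libraries (columns), as log10 CPM with values under 0.1 CPM shown at 0.1. The 3 non-cryopreserved columns are brighter than all recovery columns for 88 of the rows, and the row with 22.6 CPM in non-cryopreserved replicate 2 alone is PGSC0003DMG400002471.

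Together the members took 0.236%, 0.261% and 0.275% of the reads in non-cryopreserved replicates 1 to 3. After cryopreservation their summed share was 0.0352%, 0.0305% and 0.0498% in the cool white libraries, 0.0557%, 0.0337% and 0.0301% in the LED libraries, and 0.0354%, 0.0318% and 0.0350% in darkness. Cool white replicate 3 and LED replicate 1 were thus the highest recovery libraries, and the dark libraries lay close to each other.

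These 2 libraries stood apart across most members, not through a few abundant ones. In LED replicate 1, 58 of the 90 members (64.4%) were higher than in both other LED libraries, and the median member was 0.78 higher on the log2 scale than the mean of those libraries. Among all genes from 5 CPM, 42.9% were highest in LED replicate 1, with a median of 0.05. In cool white replicate 3, 67 members (74.4%) were highest of their group with a median of 0.58, against 37.4% and 0.01 over all genes from 5 CPM. Medians in the dark libraries ranged from -0.28 to 0.17, and in the non-cryopreserved libraries from -0.18 to 0.10.

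Genes with the opposite response shifted the other way in the same libraries. A mirror set of 340 genes had at least 5 CPM in each recovery condition and at least 4 times the non-cryopreserved mean. Of these, 273 (80.3%) were lowest of their group in LED replicate 1, with a median of -0.92, and 265 (77.9%) in cool white replicate 3, with a median of -0.37. Among all genes from 5 CPM in non-cryopreserved tips, 30.9% were lowest in LED replicate 1 and 34.4% in cool white replicate 3. In LED replicate 3 the mirror set had a median of 0.76 and the members -0.55. The relation was not general, since in dark replicate 3 both medians were above 0, at 0.13 for the members and 0.14 for the mirror set. Repressed and raised genes were both nearer to their non-cryopreserved levels in LED replicate 1 and cool white replicate 3 than in the other libraries of these groups. What sets these libraries apart was not tested.

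**Figure D3:**
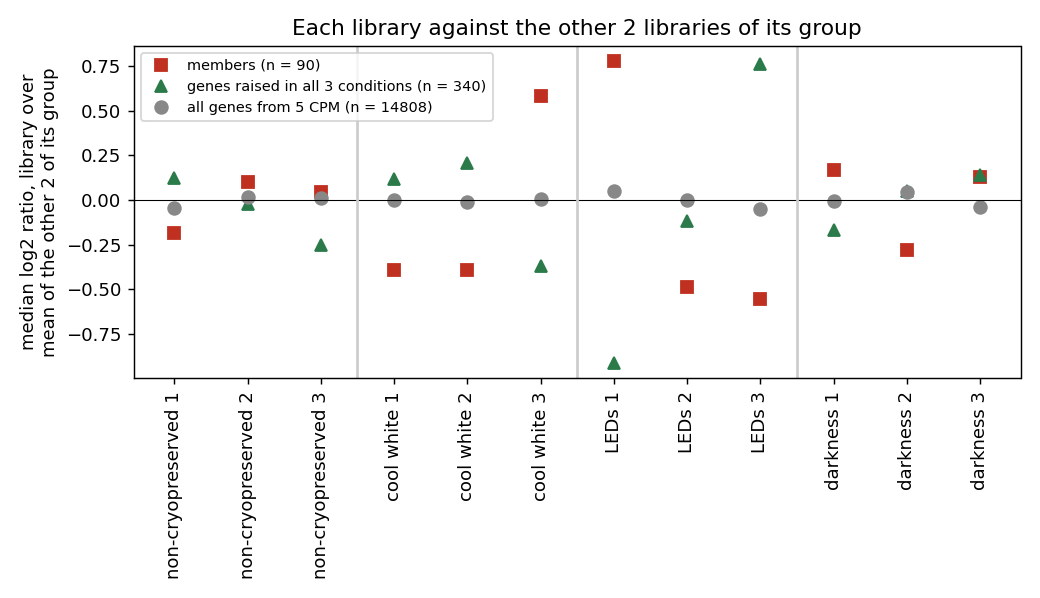
Median log2 ratio of each library to the mean of the other 2 libraries of its group (vertical), with 0.1 CPM added, for the 90 members, the 340 raised genes and all 14808 genes from 5 CPM. LED replicate 1 and cool white replicate 3 have the highest medians for members, 0.78 and 0.58, and the lowest for raised genes, -0.92 and -0.37.

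Spread between replicates was wide for these genes. The median coefficient of variation over 3 replicates was 19.1% without cryopreservation, 37.4% in darkness, 51.5% under LEDs and 38.5% under cool white light. Over all genes from 5 CPM the corresponding medians were 10.0%, 9.86%, 11.7% and 8.49%. Members have fewer reads than most of those genes, above all in recovery, and the part of read number in this spread was not tested.

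Genes chosen by the same rule without 1 replicate number of every group were mostly lower in the libraries left out too. Of the 107, 74 and 92 genes chosen without replicates 1, 2 and 3, 86, 65 and 73 were among the 90. The limits of the rule were set with results of these data known. The shares below therefore describe single replicates and are no independent test of the members. With replicate 1 of every group set aside, the rule took 107 genes, and in the replicate 1 libraries 104 of them (97.2%) were lower in all 3 recovery conditions than without cryopreservation. The other 3 had no read in the non-cryopreserved library. Among all genes from 5 CPM in the libraries used for the choice, 35.0% were lower in all 3. The 107 genes were at 25% or less in 81 cases in cool white light, in 55 with LEDs and in 84 in darkness, or 75.7%, 51.4% and 78.5%, where all genes from 5 CPM gave 0.948%, 0.807% and 3.40%. With replicate 2 set aside, 74 genes were taken, all 74 were lower in the 3 replicate 2 recovery libraries, and 70, 64 and 69 were at 25% or less in the same order (94.6%, 86.5% and 93.2%). All genes from 5 CPM gave 37.9% lower in all 3, and 1.19%, 1.22% and 2.81% at 25% or less. With replicate 3 set aside, 92 genes were taken, 90 were lower in all 3 conditions and 2 had no read in the non-cryopreserved library, and 70, 86 and 80 were at 25% or less (76.1%, 93.5% and 87.0%). All genes from 5 CPM gave 39.3% lower in all 3, and 0.749%, 1.92% and 3.08% at 25% or less. The smallest share at 25% or less was in LED replicate 1, and those of cool white replicates 1 and 3 were next and close to each other. Median levels were 24.6% of the non-cryopreserved library in LED replicate 1 and 16.2% in cool white replicate 3, while the other 7 recovery libraries had medians from 7.16% to 14.02%.

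The most abundant members were 2 identifiers whose counts ran nearly in parallel. PGSC0003DMG400026586 was at 202, 270 and 306 CPM in non-cryopreserved replicates 1 to 3. It was at 56.6, 37.0 and 65.6 CPM under cool white light, at 84.1, 45.8 and 49.7 CPM under LEDs, and at 54.3, 64.3 and 46.8 CPM in darkness. These groups did not overlap with the control, and the recovery means of 53.1, 59.9 and 55.1 CPM were 20.5%, 23.1% and 21.3% of it, close to the limit of 25%. PGSC0003DMG400026594 followed it at means of 246 ± 48.1 CPM without cryopreservation, 49.5 ± 13.9 CPM under cool white light, 55.6 ± 20.01 CPM with LEDs and 51.8 ± 8.00 CPM in darkness (SD, n = 3).

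The ratio of their counts stayed between 0.914 and 0.970 in all 12 libraries (chi-square of 0.112 per degree of freedom). Independent counting would give values near 1. PGSC0003DMG400002101 and PGSC0003DMG400033329 were closer still, with identical counts in 9 of 12 libraries and a value of 0.00109. No other pair of members with at least 300 reads each was under 0.416. Whether these pairs count the same reads under 2 identifiers was not tested, since no annotation was used. If both do, the 90 members are 88 separate measurements.

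The members with the lowest share of the non-cryopreserved mean, 2 for each recovery condition, were 4 genes in all. For this order a group with no read was set to 3 reads over the group, so a gene at 0 could rank behind one with a measured mean. PGSC0003DMG400034808 was at 108, 93.6 and 97.1 CPM without cryopreservation. Under LEDs it was at 0.757, 0.766 and 1.35 CPM, under cool white light at 1.19, 1.04 and 3.10 CPM, and in darkness at 2.69, 3.17 and 3.95 CPM. The LED mean of 0.958 ± 0.341 CPM (SD, n = 3) was 0.963% of the non-cryopreserved mean, the lowest LED share among members with a read in that group. This gene combined a high control level with a deep reduction, and its recovery means increased from LEDs through cool white light to darkness, with overlap between neighbouring groups.

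PGSC0003DMG400015287 was at 21.9, 15.5 and 19.8 CPM without cryopreservation and had 1, 0 and 2 reads in the cool white libraries. That is a 154-fold lower mean, with an exact Poisson 95% interval from 51.3-fold to 727-fold that covers counting error in those 3 reads only. Leaving out cool white replicate 3 moved its cool white level from 0.649% to 0.348% of the non-cryopreserved mean, and leaving out replicate 2 moved it to 0.974%. Under LEDs it was at 0.378, 0.307 and 0.416 CPM and in darkness at 0.674, 0.507 and 1.17 CPM. Every library of these groups was above every cool white library.

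PGSC0003DMG400033904 was at 5.83, 9.83 and 11.3 CPM without cryopreservation and had 1 read in each cool white library, a 70.6-fold lower mean with a counting interval from 24.2-fold to 343-fold. It had no read in any dark library, which is 66.4-fold lower at a floor of 3 reads over the group (0.135 CPM). With the upper end of the 95% counting interval, 3.69 reads, the dark level was at least 54.0-fold lower. Under LEDs, 23 of its 24 reads were in replicate 1, at 2.18 CPM, against 0.153 and 0 CPM in replicates 2 and 3. PGSC0003DMG400010221, at 3.63, 7.25 and 4.17 CPM without cryopreservation, had 4 reads in cool white light and 2 each with LEDs and in darkness. Its LED mean was 75.7-fold lower with a counting interval from 18.5-fold to 553-fold, and its dark mean 59.4-fold lower with an interval from 15.4-fold to 459-fold. Its LED level was 1.32% of the control, or 1.98% without LED replicate 2. Its dark level was 1.68%, or 2.53% without dark replicate 1 or 3. Its 2 dark reads were in replicate 2, so without that library no read was left. The value of 2.70% then is the floor of 3 reads over the group and not a measured level. One further member, PGSC0003DMG400025274, was named after its values were seen. It had no read under LEDs or in darkness, so its measured level there was below that of PGSC0003DMG400010221. The floor of 3 reads put it behind that gene, at 1.55% and 1.87% of the control. With the upper end of the 95% counting interval, 3.69 reads, it was at least 52.4-fold lower under LEDs and 43.5-fold lower in darkness. Its non-cryopreserved level of 2.05, 14.9 and 4.82 CPM was uneven between replicates.

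Whether light in the last 16 h changed the level of the reduced genes was asked by comparing darkness with each light. The rule used no such contrast, but it held all 3 recovery means at 25% of the control or less. That limits their differences in CPM but sets no limit on the ratio of darkness to a light. Against cool white light, 6 of 89 members (6.74%) were lower and 3 (3.37%) higher in darkness in edgeR (quasi-likelihood test, Benjamini-Hochberg adjustment over all 19920 genes). Among all tested genes, 10.4% were lower and 4.55% higher. Against LEDs, 5 members (5.62%) were lower and 5 (5.62%) higher in darkness, where all tested genes gave 7.17% and 3.46%. These member shares include genes with few reads in the libraries compared. On the 6 libraries compared alone, 50 members passed the filter on low counts against cool white light and 49 against LEDs, while the other 39 and 40 passed through the non-cryopreserved libraries, where the rule made them high. In fits of those 6 libraries, 6 of 50 members (12%) were lower and 2 (4.0%) higher in darkness than under cool white light, and 12.7% and 6.52% of all genes in the fit. Against LEDs, 4 of 49 (8.16%) were lower and 1 (2.04%) higher, and 4.9% and 1.77% of all genes. Nothing particular to the set is read from these shares. Single libraries moved these small counts. Against cool white light, 3 members were called lower without cool white replicate 3 and 2 without dark replicate 2, and 0 were called higher without cool white replicate 1 or 2 or dark replicate 3, where 3, 6 and 4 had an unadjusted p under 0.05. Against LEDs, 2 were called lower without LED replicate 1 or dark replicate 1 or 2, 3 without LED replicate 2 and 10 without LED replicate 3. The members called higher than under LEDs were 1 without LED replicate 1 or dark replicate 3, and 3 without LED replicate 3, dark replicate 1, cool white replicate 2 or any 1 of the non-cryopreserved libraries. Precision was low. The standard error (SE) given here is the size of the log2 fold change divided by the square root of its F statistic in edgeR. It is thus derived from the test and not fitted separately. Its median against cool white light was 0.49 for members and 0.17 over all tested genes, and against LEDs 0.48 and 0.17. Members had few reads in recovery and also a higher median biological coefficient of variation in edgeR, 25.4% compared with 12.3%, and their parts in the standard error were not tested.

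The middle of the set lay slightly lower in darkness, but not under every setting. The median log2 fold change of darkness over light was -0.29 for members against each light, where all tested genes had medians of -0.00 and -0.01. Darkness had the lowest of the 3 recovery means for 51 of 90 members (56.7%), against 45.8% of genes from 5 CPM. Without cool white replicate 3 and LED replicate 1, an alternative chosen after seeing the data, darkness was lowest for 30 members (33.3%), against 45.0% of genes from 5 CPM. The medians then were -0.02 against cool white light and 0.04 against LEDs. These 2 libraries were picked because members were high in them, so leaving them out can only lower the light means of most members, and the change shows the size of their share and no cause. Other choices moved the median against cool white light too, to -0.11 without dark replicate 2 and to -0.03 in the fit of the 6 libraries compared. The same 50 members had a median of -0.02 in the fit of all libraries, and the other 39, which did not pass that filter, -0.71. Against LEDs the median was -0.29 in the fit of 6 libraries. Without cool white replicate 3 and LED replicate 1 the rule took 114 genes, 89 of them among the 90.

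**Figure D4:**
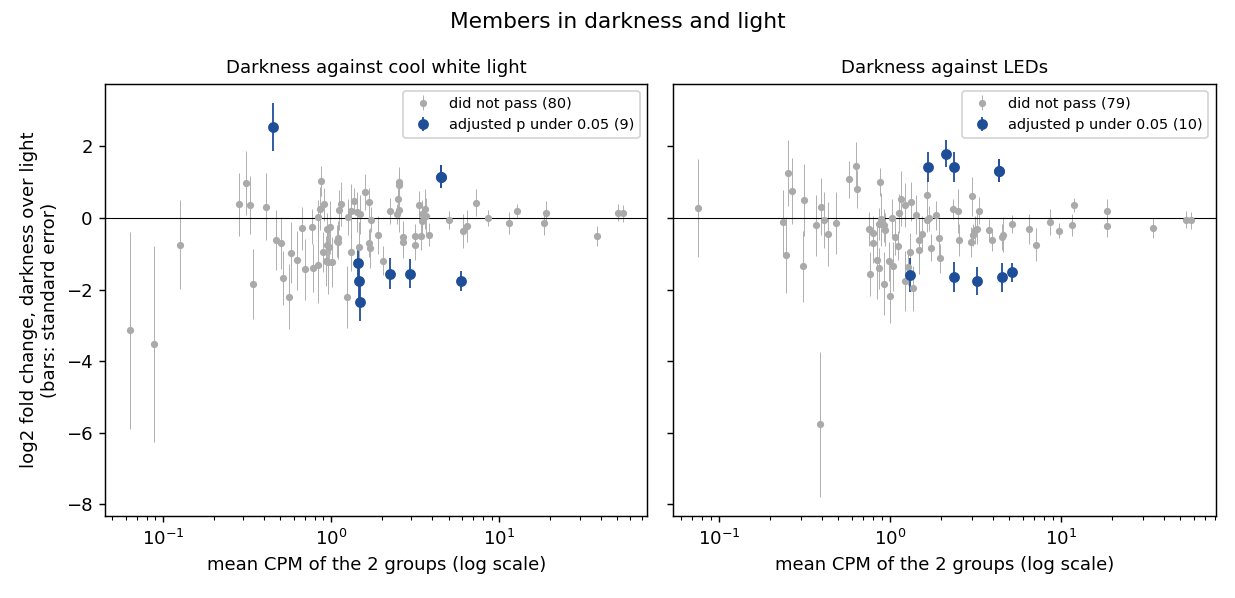
Log2 fold change of darkness over cool white light (left) and over LEDs (right), against the mean CPM of the 2 groups (log scale), for the 89 tested members. Bars are standard errors derived from the F statistic of the test. Blue points passed an adjusted p of 0.05 in edgeR, with 9 in the left and 10 in the right panel.

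The smallest adjusted p for darkness against either light was that of PGSC0003DMG400025614. It was at 33.7, 50.5 and 33.7 CPM without cryopreservation, at 8.23, 8.85 and 10.7 CPM under cool white light, at 9.55, 7.82 and 5.93 CPM under LEDs, and at 2.16, 2.15 and 3.51 CPM in darkness. All dark libraries lay below all light libraries. In edgeR the log2 fold change of darkness was -1.765 (SE 0.27) over cool white light, with an adjusted p of 0.000461, and -1.52 (SE 0.27) over LEDs, with an adjusted p of 0.00280. Against cool white light its adjusted p under the alternatives ran from 2.09e-07 to 0.00503. Its mean was 23.6% of the control under cool white light, 19.8% with LEDs and 6.63% in darkness.

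PGSC0003DMG400028627 had the largest dark decrease relative to cool white light among members called with libraries that did not overlap. Its levels were 12.3, 9.95 and 10.5 CPM without cryopreservation, 2.12, 2.47 and 2.86 CPM under cool white light, 2.18, 1.07 and 0.520 CPM under LEDs, and 0.539, 0.127 and 0.731 CPM in darkness. The LED libraries spanned the gap between the cool white and the dark libraries. The log2 fold change of darkness over cool white light was -2.34 (SE 0.54), and its adjusted p was 0.00861 in edgeR and from 0.000991 to 0.0455 under the alternatives.

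Relative to LEDs, PGSC0003DMG402010026 had the largest dark decrease among such members. It was at 26.6, 26.0 and 34.4 CPM without cryopreservation, at 2.92, 4.17 and 6.32 CPM under cool white light, at 7.76, 3.83 and 3.43 CPM under LEDs, and at 1.62, 1.27 and 1.46 CPM in darkness. The dark libraries lay below all libraries of both lights. The log2 fold change was -1.75 (SE 0.39) against LEDs with an adjusted p of 0.0110, and -1.55 (SE 0.40) against cool white light with an adjusted p of 0.0178, both in edgeR. Under the alternatives its LED comparison ranged from an adjusted p of 0.000403 to 0.0519, the latter with limma voom.

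PGSC0003DMG400013004 was highest under LEDs among the recovery groups. It was at 27.9, 33.9 and 33.3 CPM without cryopreservation, at 2.26, 2.21 and 5.13 CPM under cool white light, at 11.4, 4.90 and 4.47 CPM under LEDs, and at 1.89, 2.03 and 2.49 CPM in darkness. LED replicate 1 held 120 of its 195 LED reads. The log2 fold change of darkness over LEDs was -1.66 (SE 0.40), and edgeR gave an adjusted p of 0.0167. Without LED replicate 1 it was -1.07 and no longer called (adjusted p 0.0677), while the lowest adjusted p among its alternatives was 0.000761. The call was also lost with limma voom and without dark replicate 1 or 2, at adjusted p of 0.0654 and 0.0586 for these replicates in edgeR.

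The remaining members, named after their values were seen, called lower in darkness were PGSC0003DMG400010021 and PGSC0003DMG400028295 against each light and PGSC0003DMG400002769 against cool white light. PGSC0003DMG400010021 had log2 fold changes of -1.56 against cool white light and -1.65 against LEDs, with adjusted p of 0.0250 and 0.0244 in edgeR. For PGSC0003DMG400028295 these were -1.76 and -1.60, with adjusted p of 0.0221 and 0.0469. PGSC0003DMG400002769 had -1.26 against cool white light with an adjusted p of 0.0498, at the edge of the threshold. Both comparisons share the dark libraries, so the 2 values of a gene are not independent.

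Among the members higher in darkness, PGSC0003DMG400034808 differed most from LEDs. With the levels given above, its dark libraries lay above all LED libraries, and the log2 fold change was 1.79 (SE 0.38), with adjusted p of 0.00790 in edgeR and from 4.48e-05 to 0.0360 under the alternatives. Against cool white light it was 0.91 (SE 0.34) with an adjusted p of 0.0903. PGSC0003DMG403017980 was at 49.2, 43.2 and 50.0 CPM without cryopreservation, 1.33, 1.56 and 3.46 CPM under cool white light, 0.568, 1.69 and 0.728 CPM under LEDs, and 2.42, 2.03 and 2.63 CPM in darkness. Its log2 fold change of darkness over LEDs was 1.42 (SE 0.42), and edgeR gave an adjusted p of 0.0463. That call was lost under 13 of 22 alternatives, among them leaving out LED replicate 1 or 3 or any dark library, with adjusted p from 0.00770 to 0.161. Both genes kept at most 4.97% of their control level in every condition.

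PGSC0003DMG400015287 had the largest dark increase relative to cool white light, with a log2 fold change of 2.53 (SE 0.67) and an adjusted p of 0.0197 in edgeR. It rests on 3 reads under cool white light and 17 in darkness, and the gene did not pass the filter on the 6 libraries compared, so it has no test without the non-cryopreserved libraries. The call was lost without cool white replicate 1 or 2 or dark replicate 3, and with limma voom, at adjusted p up to 0.0743, while other alternatives reached down to 0.0157. Its log2 fold change was 3.34 without cool white replicate 3. Even in darkness this gene had 4.11% of its control level.

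PGSC0003DMG400033329, whose counts nearly equal those of PGSC0003DMG400002101, was higher in darkness than under either light. It was at 32.8, 35.0 and 32.0 CPM without cryopreservation, at 1.86, 2.99 and 3.70 CPM under cool white light, at 1.89, 3.07 and 2.81 CPM under LEDs, and at 4.58, 4.43 and 9.36 CPM in darkness. The log2 fold change was 1.15 (SE 0.32) over cool white light with an adjusted p of 0.0245, and 1.32 (SE 0.32) over LEDs with an adjusted p of 0.0172, both in edgeR. Dark replicate 3 held 64 of its 133 dark reads, and without it the log2 fold change over cool white light was 0.71 with an adjusted p of 0.105. Leaving out cool white replicate 1 or 2 gave adjusted p of 0.0990 and 0.0642 in edgeR. The call was also lost with limma voom, at 0.0512, and the lowest of its alternatives was 0.00305. PGSC0003DMG400002101 was called with it in both comparisons, and if the pair is 1 measurement, the members higher in darkness are 2 separate ones against cool white light and 4 against LEDs. The fifth member called higher against LEDs, PGSC0003DMG400008498, was named after its values were seen and had a log2 fold change of 1.43 with an adjusted p of 0.0449 in edgeR and libraries that overlapped.

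**Figure D5:**
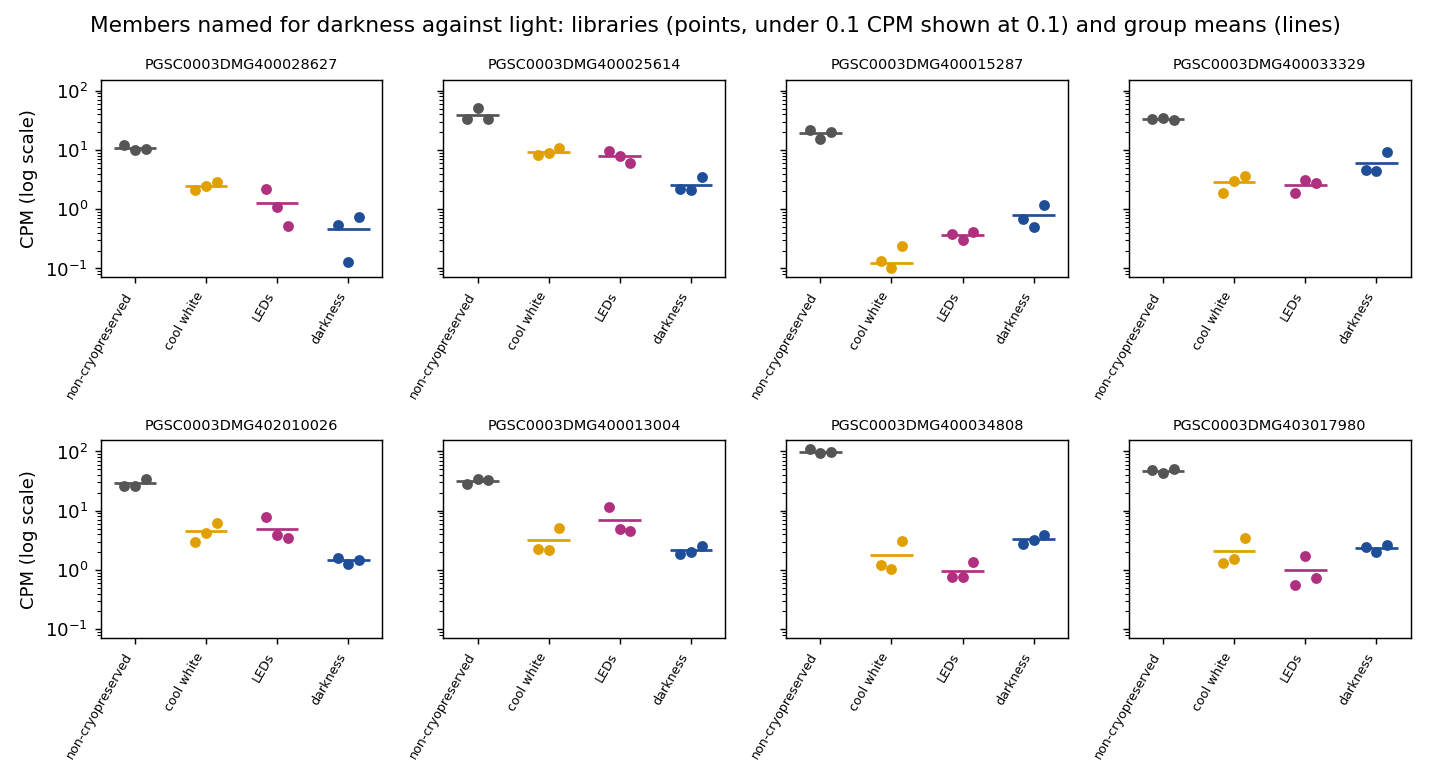
CPM (log scale) of the 8 members named for darkness against light, with 1 point per library, group means as lines and values under 0.1 CPM shown at 0.1. In PGSC0003DMG400025614 and PGSC0003DMG402010026 all dark points lie below all light points, and in PGSC0003DMG400033329 all dark points lie above them.

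Cool white and LED levels were part of the rule, so their difference is described without a test. The median log2 fold change of LEDs over cool white light was -0.02 over the 89 members in the edgeR fit. Members with at least 1 CPM in one of these groups were ranked by the ratio of LED to cool white mean. PGSC0003DMG400028635 had the lowest ratio at 0.362, with 1.46, 1.69 and 0.358 CPM under cool white light and 0.757, 0.307 and 0.208 CPM under LEDs, which overlap. PGSC0003DMG400002769 followed at 0.442, with 1.72, 2.60 and 1.91 CPM under cool white light and 0.946, 0.460 and 1.35 CPM under LEDs, which do not. It was at 12.3, 18.1 and 11.3 CPM without cryopreservation.

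At the other end, PGSC0003DMG400025476 had the highest ratio at 4.0, from 31 LED and 7 cool white reads, with 0.133, 0.130 and 0.597 CPM under cool white light and 1.32, 1.07 and 1.04 CPM under LEDs. Its LED libraries were above all its cool white libraries and above the dark libraries at 0.539, 0 and 0.585 CPM, and far below the 7.10, 9.09 and 10.3 CPM of non-cryopreserved tips. PGSC0003DMG400013004 followed at 2.16, with the levels given above and most of its LED reads in replicate 1. Across the set, the highest recovery mean was under 2 times the lowest for 54 of the 90 members, and the median of that ratio was 1.73 over the 88 members with a read in every condition.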

How the data were processed

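RNA was sequenced from 12 libraries (TruSeq Stranded mRNA). The deposited values are raw read counts per gene, per the file headers, in 1 file per library. Tools named by the submitters' processing notes are featureCounts 1.5.0, DESeq2 1.14.1, TopHat2 2.0.8b, FastQC 1.11.2 and Bowtie 1.1.1, listed in no order of use. The sources used here give no genome build, annotation release or strand setting, so reads of overlapping or near-identical genes may be split or counted under several identifiers.

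Members, lists and tests were chosen with earlier results of these data known. CPM used the library total. Counts of 12 libraries were fitted together in edgeR 4.0.16 (R 4.3.3) with TMM scaling, filterByExpr at a minimum count of 10 and the quasi-likelihood test, with 8 residual degrees of freedom, and p-values were adjusted by Benjamini-Hochberg over 19920 genes at a threshold of 0.05. The fit was run on simulated data that gave all genes the same spread. That run does not show how often changes in members, with few reads and wider spread, would be found. Contrasts with non-cryopreserved tips and between the lights entered the choice of members and are described only. A group with no read was set to 3 reads over the group. Intervals and floors cover counting error only, since reads without molecular identifiers are not independent molecules. Replicate libraries differed beyond counting noise (chi-square per degree of freedom 2.94 to 19.3). The labels call the replicates biological.

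At most 2 identifiers were named per comparison and direction: the highest non-cryopreserved levels, the lowest share of the non-cryopreserved mean in each condition, the largest called changes with libraries that did not overlap, and the extreme ratios of LEDs to cool white light among members with 1 CPM in one of them. Alternatives were other scalings, DESeq2 1.42.0, limma 3.58.1 (voom), other filters, a fit of the 6 libraries compared, a replicate block, other limits of the rule and leaving out each library. An alternative without cool white replicate 3 and LED replicate 1 was chosen after seeing the data.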

Additional observations from a re-analysis of the deposited data

Results flagged for a closer look

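Of the members called between darkness and a light by the test of the difference itself (edgeR, Benjamini-Hochberg adjusted), 8 were named by rule, some of them called against both lights. Relative to cool white light, the log2 fold change of darkness was -2.34 for PGSC0003DMG400028627, -1.765 for PGSC0003DMG400025614, 2.53 for PGSC0003DMG400015287 and 1.15 for PGSC0003DMG400033329. Relative to LEDs it was -1.75 for PGSC0003DMG402010026, -1.66 for PGSC0003DMG400013004, 1.79 for PGSC0003DMG400034808 and 1.42 for PGSC0003DMG403017980. The value of PGSC0003DMG400015287 rests on 3 reads under cool white light and 17 in darkness. That gene passed the filter on low counts only through the non-cryopreserved libraries, where the rule made it high. PGSC0003DMG400025614, PGSC0003DMG400028627 and PGSC0003DMG400034808 kept an adjusted p under 0.05 in all 22 alternatives run for each.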

How the results depend on the processing

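The set of 90 members grew to 96 with TMM, 101 with DESeq2 size factors and 107 with upper quartile scaling, which moved recovery levels by up to -0.142 on the log2 scale relative to the library total. Leaving out single libraries or 1 replicate number of every group gave 74 to 107 members. Without both cool white replicate 3 and LED replicate 1 there were 114. The limits of the rule mattered more, with 55 members at 10 CPM, 162 at 33.3%, 26 at 12.5% and 31 with every recovery library at 25% of the lowest non-cryopreserved library. Against cool white light, the members called lower in darkness (6) were 2 with limma voom and 2 to 7 when single libraries were left out. The members called higher (3) were 0 with limma voom, where 5 had an unadjusted p under 0.05, 5 without both high libraries and 0 to 4 without single libraries. Against LEDs, the members called lower (5) were 1 with limma voom and 2 to 10 without single libraries. The members called higher (5) were 1 in the fit of 6 libraries, in which 49 members passed the filter, 3 with the replicate block, 1 without both high libraries and 1 to 5 without single libraries. None of the 8 named fold changes of darkness over light changed direction in these alternatives, and the cause of the changes was not tested. Same-numbered libraries were fitted as unpaired, and 3 replicates cannot settle whether they were paired. Over all 18 same-numbered pairs, correlations of deviations ran from -0.241 to 0.201. Between differently numbered libraries they ran from -0.218 to 0.208. Deviations of same-numbered libraries correlated at -0.0357 to 0.109 between darkness and cool white light and at 0.00993 to 0.201 between darkness and LEDs, and with the replicate block 5 members were lower and 3 higher in each comparison. A median of 8 reads per library in darkness limits what could be detected.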
